A study of Mus musculus with 8 samples.

Results

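Klrg1, Pparg, Il1rl1, Areg and Nfil3 are genes known from regulatory T cells (Treg) that live in non-lymphoid tissues, and they were taken by symbol from a table of gene expression in activated mouse Treg. They are 5 of the 22432 genes in the table, and all 5 passed the minimum level that left 13797 genes for testing. The genes were chosen by the differences in their log2 values between genotypes in these same libraries, known from earlier results. Their levels and differences are therefore given as a description, with no p-value of their own. In Treg lacking both RelB and Nfkb2 the mean levels of Pparg, Klrg1 and Il1rl1 were 2.15-fold, 2.10-fold and 2.93-fold those of control Treg, while Areg and Nfil3 differed less. These sizes depend on the libraries and the scale: on the log2 scale the difference of Il1rl1 was 1.55 in all libraries, 0.94 without WT replicate 1 and 0.46 in the authors' deposited table. That of Klrg1 was 1.07 in all libraries and 0.50 in the authors' deposited table, and that of Pparg was 1.10, or 0.62 without DKO replicate 2. None of the 5 was called in that comparison by the model used here, which called 0.0145% of all genes tested. By the authors' adjusted p 1 of the 5, Pparg, was called higher in it (log2 fold change 1.27), against 0.593% of all genes. For Pparg and Klrg1, but not Il1rl1, the libraries of RelB-deleted Treg all lay above those with RelB intact, as for 1.59% of all genes. That grouping was made after the values were seen.

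The study sequenced RNA from YFP+ Treg sorted from spleen and lymph nodes, which were pooled, of C57Bl/6 mice. All 4 genotypes, the controls included, carried Foxp3-CRE-YFP, a Cre recombinase made with YFP in cells that express Foxp3, so that floxed (F/F) alleles are deleted in those cells. The WT group had no floxed allele, RelB-KO carried RelB F/F, Nfkb2-KO carried nfkb2 F/F, and the double knockout, DKO, carried both; each group had 2 libraries, numbered replicate 1 and 2. Before RNA extraction the sorted cells were cultured for 16 h on plate-bound anti-CD3 (5 µg/ml) with soluble anti-CD28 (1 µg/ml), an agonist antibody to OX40 (2 µg/ml) and IL-2 (10 ng/ml). The labels do not give the age of the mice, or whether the libraries of a genotype came from separate mice. The 2 WT libraries differed in sex-linked transcripts, as given below, and so came from different mice. In the other genotypes the spread between libraries may be technical.

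RelB and p100/p52, the product of Nfkb2, are the subunits of the alternative NF-κB pathway, which receptors of the TNF family such as OX40 engage by having p100 processed to p52. Treg of fat, skin, muscle and gut take up a programme that Treg of lymphoid organs largely lack: they carry ST2, the IL-33 receptor encoded by Il1rl1, and the inhibitory lectin receptor KLRG1, and those of visceral fat depend on the nuclear receptor PPARγ. Amphiregulin, encoded by Areg, is an EGF family growth factor by which such cells take part in repair, and NFIL3 is a basic leucine zipper transcription factor of several lymphocyte lineages.

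In the mm10 annotation (GENCODE M21) the 5 genes were protein coding and lay on 4 chromosomes. Klrg1 (ENSMUSG00000030114.8) was at chr6:122270596-122282882 on the minus strand, and Pparg (ENSMUSG00000000440.12) at chr6:115360951-115490399 on the plus strand, where its span, but no exon, overlaps that of Gm44079. Il1rl1 (ENSMUSG00000026069.15) was at chr1:40429570-40465415 on the plus strand, and its membrane-bound and soluble forms are summed in a value per gene. Areg (ENSMUSG00000029378.5) was at chr5:91139599-91148432 on the plus strand, and Nfil3 (ENSMUSG00000056749.7) at chr13:52967209-52981073 on the minus strand.

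The promoter windows below show what the members do and do not share upstream of their start sites. RefSeq (GRCm38.p6) promoter windows, from 250 bases before to 50 after a start site, were matched for 4 of the 5 genes, with 3 start sites for Pparg and 2 for Il1rl1. Shown are Areg (chr5:91139349-91139648), both Il1rl1 starts (chr1:40429320-40429619 and chr1:40439379-40439678) and the outermost Pparg starts (chr6:115360894-115361193 and chr6:115421816-115422115), all on the plus strand. Capitals mark a match to a searched motif:
Areg: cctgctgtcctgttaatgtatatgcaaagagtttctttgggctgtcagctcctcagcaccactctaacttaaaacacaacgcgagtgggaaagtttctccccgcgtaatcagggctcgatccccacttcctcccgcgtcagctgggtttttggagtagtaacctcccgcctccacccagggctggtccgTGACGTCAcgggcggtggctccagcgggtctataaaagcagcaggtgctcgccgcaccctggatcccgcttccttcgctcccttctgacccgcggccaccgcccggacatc
Il1rl1, start 1: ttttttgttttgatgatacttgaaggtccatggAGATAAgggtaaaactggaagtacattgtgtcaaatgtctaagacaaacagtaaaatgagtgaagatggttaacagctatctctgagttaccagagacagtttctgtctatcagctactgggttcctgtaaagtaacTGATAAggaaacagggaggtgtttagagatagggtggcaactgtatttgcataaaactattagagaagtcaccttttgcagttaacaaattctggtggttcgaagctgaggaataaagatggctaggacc
Il1rl1, start 2: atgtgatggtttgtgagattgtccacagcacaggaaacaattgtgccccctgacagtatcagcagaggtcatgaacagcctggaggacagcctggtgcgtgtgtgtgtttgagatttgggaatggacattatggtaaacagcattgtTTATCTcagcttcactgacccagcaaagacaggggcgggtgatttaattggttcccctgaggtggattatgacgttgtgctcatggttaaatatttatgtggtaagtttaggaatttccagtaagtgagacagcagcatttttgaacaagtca
Pparg, start 1: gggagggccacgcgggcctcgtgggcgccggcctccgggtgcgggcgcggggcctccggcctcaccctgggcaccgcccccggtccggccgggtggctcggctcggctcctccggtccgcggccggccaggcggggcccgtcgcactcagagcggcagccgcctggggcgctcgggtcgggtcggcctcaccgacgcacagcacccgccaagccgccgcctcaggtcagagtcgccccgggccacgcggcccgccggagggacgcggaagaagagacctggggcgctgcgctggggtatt
Pparg, start 3: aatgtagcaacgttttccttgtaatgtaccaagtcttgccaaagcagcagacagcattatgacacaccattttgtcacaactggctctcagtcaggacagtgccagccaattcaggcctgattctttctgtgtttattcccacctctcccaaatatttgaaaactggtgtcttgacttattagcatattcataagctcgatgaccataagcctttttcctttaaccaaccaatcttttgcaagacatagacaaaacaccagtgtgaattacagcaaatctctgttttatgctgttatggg
The capitals in Areg are the cAMP response element TGACGTCA, which reads the same on both strands and begins 61 bases before the start site. It was found in 1.79% of all 32851 windows. The capitals in Il1rl1 are matches to the GATA motif, spelled AGATAA or TGATAA, on the plus strand 217 and 80 bases before start 1 and on the minus strand, printed as TTATCT, 103 bases before start 2. A GATA match was in 18.6% of all windows. The NF-κB consensus as searched, in 8.46% of windows, and the AP-1 motif TGANTCA, in 7.81%, had no match in the 7 windows of the 4 genes. The letters of that NF-κB consensus are not given here. The Il1rl1 start 2 window holds ggaatttcc, a sequence close to κB sites that the search did not count. Both strands were searched, these motifs share no letters with each other in the windows printed, and a missing match says only that those letters are not in the window. GC content differed widely: 80.3% at Pparg start 1, 40.3% at Pparg start 3 and 81.7% at the Nfil3 start.

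The series as a whole sets limits for what follows. Values are the authors' log2 expression values. Their header names log2 RPKM after batch correction, but weakly expressed genes hold nearly the same value in all libraries, as a shrunken log scale gives, so whether the values are already per length is not settled; the read depth behind each value is unknown beyond the sequencing target stated for the series, and the number of libraries limits precision. The targeted genes matched the labels: mean log2 Relb fell from 10.58 (WT) and 10.84 (Nfkb2-KO) to 6.44 (RelB-KO) and 6.91 (DKO) where it was targeted, and mean log2 Nfkb2 from 12.71 (WT) and 12.49 (RelB-KO) to 8.77 (Nfkb2-KO) and 9.57 (DKO). Foxp3 ran from 13.95 to 14.28 over the 8 libraries. WT replicate 1 stood apart in sex-linked transcripts (log2 Xist 8.17 against 14.6 to 15.1 in the other libraries, and log2 Ddx3y 11.6 against 4.25 to 4.35). It had a male pattern and the other libraries a female one, so the members' differences from WT are given with and without WT replicate 1. The largest component of variation separated replicate 1 from replicate 2 libraries, so the members' differences are also given within each replicate number.

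Klrg1 encodes a receptor that binds cadherins and restrains activated lymphocytes. Its log2 value was 8.23 and 8.77 in WT (replicate 1 and 2), 9.69 and 8.94 in RelB-KO, 8.31 and 8.38 in Nfkb2-KO, and 9.49 and 9.65 in DKO. Every library with Relb deleted lay above every library with Relb intact, as for 1.59% of all genes. The groups with and without Nfkb2 therefore had to overlap, as each held libraries of both kinds.

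Pparg, the nuclear receptor that sets lipid handling in fat Treg, had the lowest values of the 5 genes. Its log2 value was 6.09 and 6.45 in WT, 6.86 and 7.01 in RelB-KO, 6.13 and 6.41 in Nfkb2-KO, and 6.90 and 7.85 in DKO. As for Klrg1, the 4 libraries with Relb deleted were the 4 highest, and DKO replicate 2 lay well above the other 3 of them.

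Il1rl1 encodes the receptor through which IL-33 expands tissue Treg. Its log2 value was 11.16 and 12.38 in WT, 12.86 and 12.18 in RelB-KO, 12.12 and 12.44 in Nfkb2-KO, and 12.99 and 13.65 in DKO. Both DKO libraries were above the other 6, WT replicate 1 was the lowest library, and WT, RelB-KO and Nfkb2-KO overlapped.

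Areg, the growth factor of the set, had log2 values of 8.87 and 8.40 in WT, 8.99 and 8.14 in RelB-KO, 9.23 and 8.87 in Nfkb2-KO, and 8.75 and 8.08 in DKO. Replicate 1 exceeded replicate 2 in each genotype. Within each replicate number Nfkb2-KO was the highest library.

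Nfil3, the transcription factor, had log2 values of 11.16 and 11.40 in WT, 11.44 and 11.18 in RelB-KO, 11.46 and 10.99 in Nfkb2-KO, and 11.60 and 11.64 in DKO. Both DKO libraries were above the other 6, by a narrow margin. The remaining libraries spanned 10.99 to 11.46 and overlapped between genotypes.

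**Figure D1:**
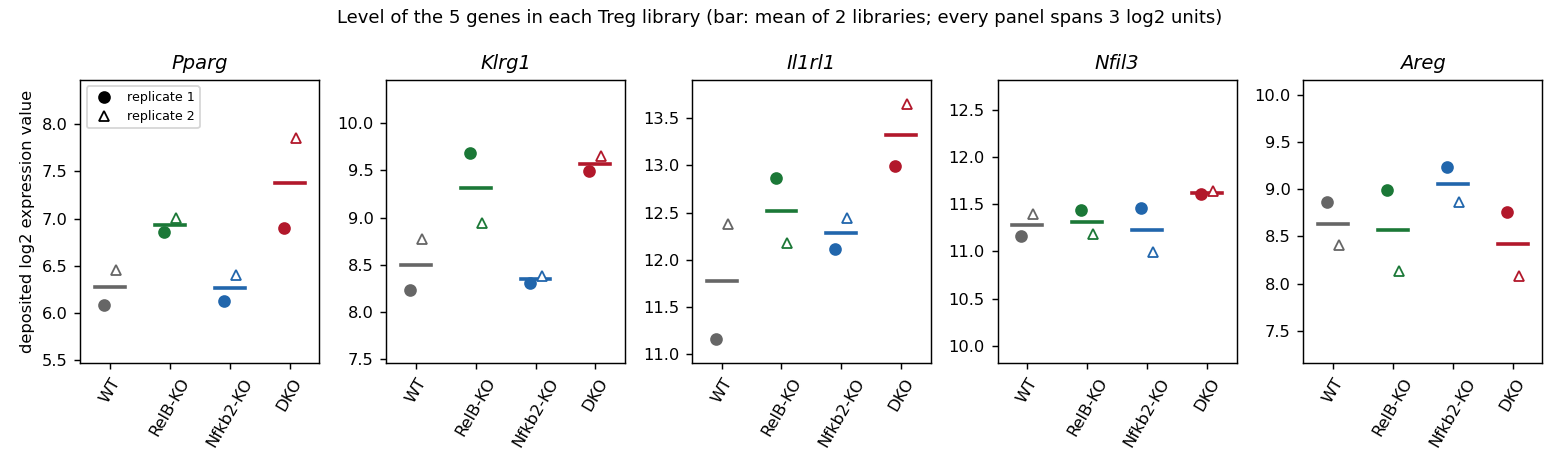
Deposited log2 expression value (vertical axis) of each of the 5 genes in the 4 genotypes; points are libraries, marked by replicate number, and bars are the mean of 2 libraries. The 4 libraries with Relb deleted lay above the 4 with Relb intact for Klrg1 and Pparg, as for 1.59% of all genes. The DKO libraries were the highest for Il1rl1 and Nfil3.

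Mean log2 value over the 8 libraries, as deposited, was 12.47 for Il1rl1, 11.36 for Nfil3, 8.93 for Klrg1, 8.67 for Areg and 6.71 for Pparg. If these values are not yet per length, dividing by the exon length in kilobases gives 9.69 for Il1rl1, 10.34 for Nfil3, 8.43 for Klrg1, 8.39 for Areg and 5.15 for Pparg. Il1rl1 and Nfil3 thus trade places between the scales, and Pparg was the lowest on both. In bulk RNA, more cells with a transcript and more transcript per cell cannot be told apart.

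Across genotypes, mean Klrg1, Pparg and Nfil3 ran from Nfkb2-KO, lowest, through WT and RelB-KO to DKO, highest. For Klrg1 and Pparg the step from WT to RelB-KO was the only one between neighbours whose libraries did not overlap. The order for Il1rl1 was WT, Nfkb2-KO, RelB-KO, DKO, and for Il1rl1 and Nfil3 the only step without overlap was from RelB-KO to DKO. Areg ran the other way at its ends, from DKO through RelB-KO and WT to Nfkb2-KO, with overlap at every step.

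Deletion of RelB alone was compared with WT on the log2 scale, each difference with the standard error (SE) of a limma model over all 8 libraries. Klrg1 was higher by 0.81 ± 0.27 (1.76-fold), Il1rl1 by 0.75 ± 0.44 and Pparg by 0.66 ± 0.30 (1.59-fold), while Nfil3 differed by 0.03 ± 0.17 and Areg by -0.07 ± 0.35. Among the 13797 genes tested, Klrg1 had the third, Il1rl1 the fourth and Pparg the seventh highest difference. The replicates gave unequal support: within replicate 1 and 2 the difference was 1.46 and 0.17 for Klrg1 and 0.77 and 0.56 for Pparg, whereas those of Il1rl1 (1.70 and -0.21), Nfil3 (0.28 and -0.22) and Areg (0.12 and -0.27) had opposite signs. Without WT replicate 1 the difference was 0.54 for Klrg1, 0.48 for Pparg, 0.14 for Il1rl1, -0.09 for Nfil3 and 0.16 for Areg, and without RelB-KO replicate 1 it was 0.44 for Klrg1 and 0.40 for Il1rl1. Libraries did not overlap for 2 of 5 genes, Klrg1 and Pparg, both higher, which was so for 9.63% of all genes. None of the 5 passed an adjusted p of 0.05 (limma, Benjamini-Hochberg over all genes tested), which 0.00725% of genes did.

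The same deletion could be read in cells that already lacked Nfkb2, by DKO against Nfkb2-KO. This shares no library with the comparison above but is not an independent reading. Same-numbered libraries deviated together, and the members were chosen on differences in these libraries. Klrg1 was higher by 1.23 ± 0.27 (2.34-fold; 1.18 and 1.27 within replicate 1 and 2), Pparg by 1.11 ± 0.30 (2.15-fold; 0.77 and 1.44) and Il1rl1 by 1.04 ± 0.44 (2.06-fold; 0.87 and 1.21). Nfil3 was higher by 0.39 ± 0.17 (0.14 and 0.64) and Areg lower, at -0.63 ± 0.35 (-0.48 and -0.78). No gene's libraries overlapped, which by itself gives all 5 differences the same sign in both replicates. Without overlap 4 of 5 were higher, against 17.4% of all genes, and Areg was lower, against 17.8%. Of the 5 genes, 0 passed the limma test without a replicate block, against 0.768% of all genes. With replicate number as a block, 3 of 5 passed, against 5.02% of all genes: Klrg1 and Pparg among the 2.07% of all genes called higher, and Areg among the 2.96% called lower. These calls describe members chosen on differences in these libraries, and nothing is read from their count. Without DKO replicate 2 the difference was 0.63 for Pparg and -0.30 for Areg, and without DKO replicate 1 that of Areg was -0.97. That of Nfil3 was 0.16 without Nfkb2-KO replicate 2 and 0.63 without Nfkb2-KO replicate 1. The block reduced the SE to 0.24 for Klrg1, 0.17 for Pparg and 0.12 for Areg. By size of difference Klrg1 was number 12, Pparg number 20 and Il1rl1 number 25 from the highest, and Areg was number 203 from the lowest.

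Joining the 4 libraries with Relb deleted against the 4 with Relb intact, a grouping made after the values were seen, gave Klrg1 means of 9.44 ± 0.35 and 8.42 ± 0.24 (SD, n = 4) and Pparg means of 7.16 ± 0.47 and 6.27 ± 0.19. The ranges were 8.94 to 9.69 against 8.23 to 8.77 for Klrg1, and 6.86 to 7.85 against 6.09 to 6.45 for Pparg. For 2 of 5 genes the groups did not overlap, all in the higher direction, as for 1.59% of all genes. Il1rl1 (difference 0.89), Nfil3 (0.21) and Areg (-0.35) overlapped. Split by Nfkb2 in place of Relb, the libraries of all 5 genes overlapped. Of all genes, 3.45% were higher and 3.63% lower without overlap in that split. For Klrg1 and Pparg this overlap followed from the split by Relb, as each Nfkb2 group held libraries of both Relb groups. It therefore says nothing more about Nfkb2 for those genes.

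Deletion of Nfkb2 alone left Klrg1 and Pparg near WT, with differences of -0.16 ± 0.27 (0.07 and -0.39 within replicate 1 and 2) and -0.004 ± 0.30 (0.04 and -0.05). Il1rl1 was 0.51 ± 0.44 higher, but the difference was 0.96 within replicate 1 and 0.06 within replicate 2, and -0.10 without WT replicate 1. Areg was 0.41 ± 0.35 higher, at 0.37 and 0.46 within the replicates, but 0.18 without WT replicate 2, 0.23 without Nfkb2-KO replicate 1 and 0.65 without WT replicate 1. Nfil3 differed by -0.05 ± 0.17, with opposite signs in the replicates (0.30 and -0.40). Without WT replicate 1 the difference was -0.43 for Klrg1, -0.19 for Pparg and -0.17 for Nfil3. Libraries overlapped for all 5 genes, where 21.6% of genes were higher and 20.9% lower without overlap. None of the 5 was called without the block (0.341% of all genes) or with it (2.91%).

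Of the 5 comparisons of genotypes, DKO against WT held the largest difference of Il1rl1, at 1.55 ± 0.44 (1.83 and 1.27 within replicate 1 and 2), the second highest of all genes tested. Pparg, at 1.10 ± 0.30 (0.81 and 1.40), and Klrg1, at 1.07 ± 0.27 (1.26 and 0.88), were the fifth and the sixth highest. Nfil3 was 0.34 ± 0.17 higher (0.44 and 0.24) and Areg differed by -0.22 ± 0.35 (-0.11 and -0.32). Without WT replicate 1 the difference of Il1rl1 was 0.94, of Pparg 0.92, of Klrg1 0.80, of Nfil3 0.22 and of Areg 0.01, and without DKO replicate 2 that of Pparg was 0.62. Libraries did not overlap for 4 of 5 genes, all higher, against 16.6% of genes, and 0 of 5 were called without the block (0.0145% of all genes) or with it (0.0652%). This comparison shares the WT libraries with both single knockouts.

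Adding Nfkb2 deletion to RelB deletion, DKO against RelB-KO, gave 0.80 ± 0.44 for Il1rl1 (0.13 and 1.48 within replicate 1 and 2), 0.44 ± 0.30 for Pparg (0.03 and 0.84) and 0.31 ± 0.17 for Nfil3 (0.16 and 0.46). Klrg1, at 0.26 ± 0.27, had opposite signs in the replicates (-0.20 and 0.71), and Areg differed by -0.15 ± 0.35 (-0.24 and -0.05). Il1rl1 and Nfil3, 2 of 5, were higher without overlap, against 13.2% of all genes, and none was called without the block (0.00725%) or with it (0.0145%). The interaction, the RelB effect in Nfkb2-deleted cells minus that in Nfkb2-intact cells, was 0.41 ± 0.38 for Klrg1, 0.44 ± 0.43 for Pparg, 0.29 ± 0.63 for Il1rl1, 0.36 ± 0.25 for Nfil3 and -0.56 ± 0.49 for Areg. No member was called for it, against 0.00725% of genes without the block and 0.471% with it. The sign differed between replicates for Klrg1, Pparg, Il1rl1 and Nfil3, and for Areg it was -0.60 and -0.52.

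**Figure D2:**
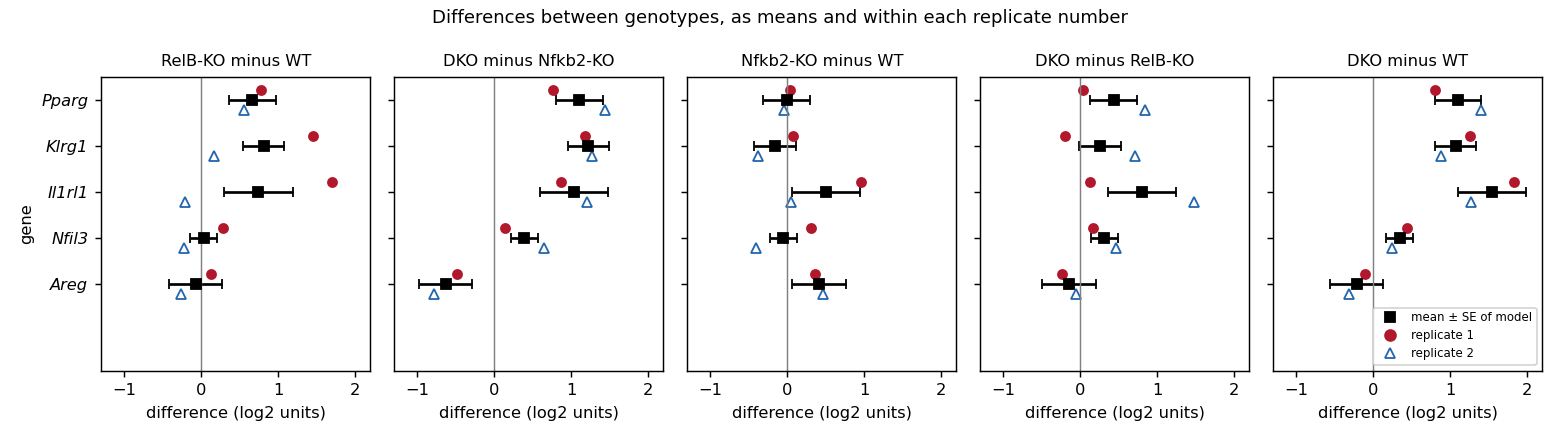
Difference in log2 value (horizontal axis) for each gene (rows) in 5 comparisons of genotypes; squares are the difference of means with the SE of the limma model, circles and triangles the difference within replicate 1 and 2. In DKO minus Nfkb2-KO both replicates lay on the same side of 0 for every gene, whereas in RelB-KO minus WT those of Il1rl1 fell at 1.70 and -0.21.

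The authors' deposited table of fold changes against WT ordered the genes differently. For Pparg it gave a log2 fold change of 0.79 in RelB-KO (adjusted p = 0.0204, by the authors) and 1.27 in DKO (adjusted p = 9.82e-09), above the differences of log2 values by 0.13 and 0.17, gaps that 0.834% and 0.855% of genes exceeded. In the authors' deposited table Klrg1 stood at 0.39 in RelB-KO and 0.50 in DKO (adjusted p = 0.144), and Il1rl1 at 0.19 and 0.46 (adjusted p = 0.150). The Il1rl1 difference of deposited log2 values in DKO was thus 1.09 above the authors' fold change, a gap that 0.0580% of genes exceeded, and the Klrg1 gap was 0.57, which 0.152% exceeded. For Areg the authors' deposited table had 0.45 in Nfkb2-KO (adjusted p = 0.0782) and -0.24 in DKO, and for Nfil3 0.32 in DKO (adjusted p = 0.347), both close to the differences above. By the authors' adjusted p, 1 of 5 genes, Pparg, was called higher in RelB-KO (0.0274% of all genes) and in DKO (0.593%), and none was called in Nfkb2-KO (6.22% in either direction).

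Further genes of the tissue Treg programme, 24 in all and each above the minimum level, had small median differences. This list and those below were chosen with earlier results of these data known, so nothing is read from their counts. In each of the 5 comparisons of genotypes, 49.7% to 51.8% of all genes were higher. With the block, 2.91% of all genes were called in Nfkb2-KO against WT and 5.02% in DKO against Nfkb2-KO. In DKO against WT 19 of the 24 were higher and 5 lower, with a median difference of 0.20, where 50.7% of all genes were higher. The largest were Ctsh, a lysosomal cathepsin, at 0.87 ± 0.20, Batf, an AP-1 family factor that tissue Treg require, at 0.80 ± 0.26, and Maf at 0.60 ± 0.19. None of the 24 passed in that comparison, with or without the block. Without WT replicate 1 16 were higher, with a median of 0.15, and Ctsh stood at 0.68, Batf at 0.48 and Maf at 0.37. In DKO against Nfkb2-KO 14 were higher, with a median of 0.30, where 50.3% of all genes were higher. Without the block 0 passed, against 0.768% of all genes. With the block 6 of 24 were called higher, against 2.07% of all genes. They were Gzmb, a cytotoxic protease (1.87), Ctsh (1.09), the transcription factor Maf (0.82) and the costimulatory receptor Icos (0.78). The repressor Prdm1 (0.65) and the prostaglandin D synthase Hpgds (0.58) were the others. Bhlhe40, a basic helix-loop-helix repressor, was called lower, at -1.77, as were 2.96% of all genes.

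Nfkb2 deletion alone gave 14 of these 24 genes higher and 10 lower, with a median of 0.04, where 50.4% of all genes were higher. With the block Bhlhe40 rose by 1.17 and Irf4, an activation-induced factor that tissue Treg need, by 0.56, and Gzmb fell by 1.49. None passed without the block. Leaving out WT replicate 1 turned the balance to 9 higher and 15 lower, with a median of -0.08. In RelB-KO against WT 16 of 24 were higher, with a median of 0.05 and none called, where 51.8% of all genes were higher. Ctsh, at 0.37 ± 0.20, and Gata3, at 0.37 ± 0.22, stood highest, Gata3 with opposite signs in the replicates (0.76 and -0.03). Without WT replicate 1, 12 of 24 were higher in RelB-KO. The comparison of DKO against RelB-KO gave 18 higher, a median of 0.18 and none called. Each of the 36 calls made with the block among all lists in the 5 comparisons of genotypes had the same sign in both replicates. A call with the block largely requires this, so it adds no support.

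Genes of resting, recirculating Treg, 12 in all, differed most in Nfkb2-KO. There 10 of 12 were lower than WT, with a median of -0.42, where 50.4% of all genes were higher. With the block, which called 2.91% of all genes, Satb1, a chromatin organiser, fell by 1.28 and the quiescence factor Foxp1 by 0.64. The IL-7 receptor gene Il7r, also called with the block, rose by 0.72. In DKO against Nfkb2-KO 9 of 12 were higher, with a median of 0.30, where 50.3% of all genes were higher. Satb1 rose by 1.66 ± 0.22 in that comparison (limma adjusted p = 0.0322 without the block). With the block Foxp1 (0.70) and Lef1 (0.50) were also among the genes called higher, and Il7r (-0.79) was called lower. Against WT the DKO had 8 of 12 lower, with a median of -0.10 and none called, and RelB-KO likewise 8 of 12 lower, at -0.06. Without WT replicate 1 the DKO had 6 lower, with a median of 0.01, RelB-KO 5 lower, at 0.04, and Nfkb2-KO 9 lower, at -0.42.

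**Figure D3:**
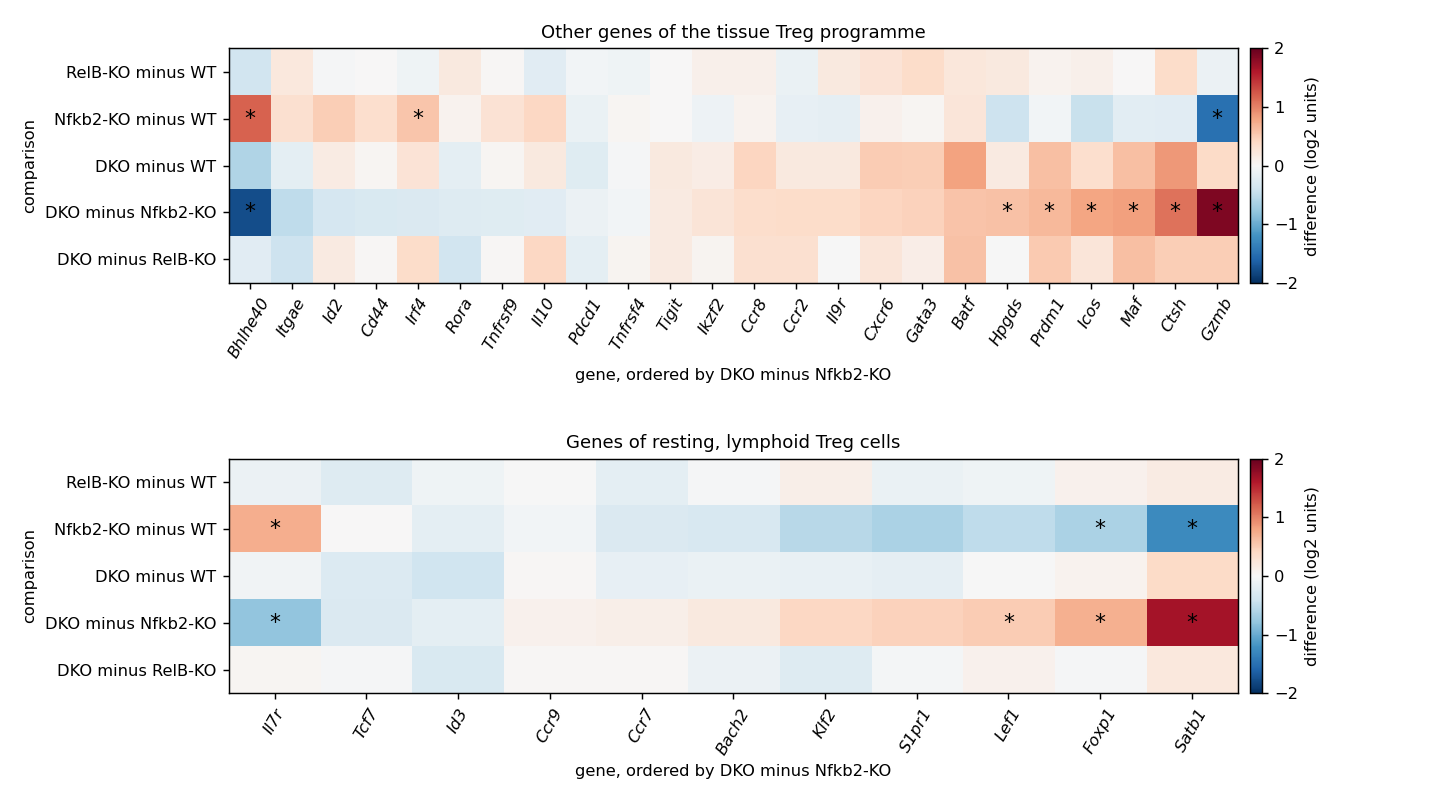
Difference in log2 value (colour) of the 24 further tissue Treg genes (upper panel) and 11 of the 12 resting Treg genes (lower panel), genes in columns and comparisons in rows, with an asterisk where limma with the replicate block called the gene. Among the called genes Bhlhe40 (1.17 and -1.77), Gzmb (-1.49 and 1.87) and Satb1 (-1.28 and 1.66) had opposite signs in Nfkb2-KO minus WT and DKO minus Nfkb2-KO, which share the Nfkb2-KO libraries.

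Around Il1rl1, 15 of 16 genes of the IL-33 receptor family and its signalling were above the minimum, Il33 itself being below it. Il1rap, the co-receptor that ST2 needs, stayed between 8.47 and 8.67 in all libraries. In Nfkb2-KO against WT 11 of 15 were higher, with a median of 0.09, and the IL-1 receptor gene Il1r1 (0.30) and its decoy Il1r2 (0.67) were called higher with the block. In DKO against Nfkb2-KO 13 of 15 were lower, with a median of -0.10, where 50.3% of all genes were higher. With the block, which called 2.96% of all genes lower, Il18r1 (-1.04) and Il18rap (-0.97), the chains of the IL-18 receptor, were called lower. Il1r2 (-0.82) and Il1r1 (-0.29) were called lower as well. Il1rl1 had the opposite sign, at 1.04. None was called in DKO against WT, where 8 of 15 were lower, or in RelB-KO against WT, where 10 of 15 were.

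Around Pparg, 22 of 27 receptor partners and lipid genes could be tested, and 0 passed without the block in any comparison. With the block Fabp5, a fatty acid carrier, rose by 0.62 and Cpt1a, of mitochondrial fatty acid uptake, fell by 0.54 in Nfkb2-KO; without WT replicate 1 the Fabp5 difference was 0.32. In DKO against Nfkb2-KO Plin2, a lipid droplet coat gene, rose by 0.64 and Fabp5 fell by 0.35 with the block. The partner receptor Rxra lay between 10.2 and 10.7 in all libraries. Cd36 (3.01 to 3.14) and Fabp4 (-1.03 to -1.01), standard PPARγ targets of fat, were low and nearly level over the libraries. In DKO against WT 12 of 22 were higher, with a median of 0.04.

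Areg's relatives showed no call in any comparison among 10 of 12 EGF family and receptor genes tested, with Ereg and Erbb4 listed at 0. Hbegf lay between 6.39 and 6.73, the receptor gene Egfr between 4.43 and 4.93, and Adam17, whose protease releases amphiregulin from the membrane, between 10.9 and 11.5. Of the clock and related leucine zipper genes taken for Nfil3, 13 of 14 were tested. With the block Arntl (-0.51) and Bhlhe41 (-0.43) were called lower in DKO against Nfkb2-KO. In DKO against WT 11 of 13 were lower, with a median of -0.10 and none called. Killer lectin receptors and cadherins, the relatives and ligands of KLRG1, were tested for 8 of 17 genes, of which none exceeded 2.58 in any library and none was called.

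Markers of other cells that can express these genes were measured beside them. For type 2 innate lymphoid cells, mast cells and basophils 6 of 12 markers were tested, and Fcer1a, Ms4a2, Mcpt4 and Prss34, which mark mast cells and basophils, were listed at 0. Their summed level (log2 of the summed un-logged values) was 8.45 and 8.63 in WT, 8.82 and 8.58 in RelB-KO, 8.67 and 8.82 in Nfkb2-KO, and 8.79 and 9.10 in DKO. In DKO against WT all 6 were higher, with a median of 0.14 and none called, and 5 were higher without WT replicate 1. Il17rb, the IL-25 receptor gene, was called higher in DKO against Nfkb2-KO with the block (1.17), and Kit was called without the block, higher in Nfkb2-KO (0.93, adjusted p = 0.0448) and lower in DKO against Nfkb2-KO (-0.92, adjusted p = 0.0304). The part of such cells in the Klrg1, Pparg and Il1rl1 differences was not tested.

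For natural killer and CD8 T cells, which carry KLRG1, 9 of 11 markers were tested, and their levels ranged widely. Ncr1 and S1pr5 did not exceed -2.08, Cd8a lay between 0.87 and 0.92 and Gzma between 1.40 and 1.54. Other markers were well above these: Cd8b1 lay between 7.57 and 7.87, Nkg7 between 8.14 and 9.22, Prf1 between 6.01 and 6.52, Eomes between 5.70 and 6.49 and Tbx21 between 9.44 and 10.6. The summed level of the 11 markers was 11.35 and 11.56 in WT and 10.80 and 11.37 in RelB-KO. It was 11.63 and 11.61 in Nfkb2-KO, and 11.22 and 11.51 in DKO. With the block Zeb2 (0.68) and Cx3cr1 (0.36) were called higher in Nfkb2-KO, and Zeb2 (-0.64) lower in DKO against Nfkb2-KO. The part of such cells in the Klrg1 difference was not tested. Myeloid and dendritic markers, of which 8 of 12 were tested, had 8 higher in DKO and 7 higher in RelB-KO against WT, with medians of 0.06 and 0.12 and none called, and 7 higher in each without WT replicate 1. Their summed level was 7.95 and 7.91 in WT, 8.22 and 7.83 in RelB-KO, 8.19 and 7.71 in Nfkb2-KO, and 8.15 and 7.83 in DKO, higher in replicate 1 throughout. Summed B cell markers ran from 7.27 to 7.83, and summed Treg identity genes from 17.29 to 17.54.

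Patterns across the 8 libraries were compared after removing the mean of each replicate number, over 703 genes with a spread (SD) of at least 0.25. The points share libraries and genotypes, and the correlations are descriptions. Among the members Klrg1 and Pparg ran most closely together (r = 0.91), then Klrg1 and Il1rl1 (0.86) and Pparg and Il1rl1 (0.82), while Areg ran opposite to Pparg (-0.69). The genes most like Klrg1 were Il17rb (r = 0.99), Frmd5 (0.98) and Slc15a3 (0.98). Il17rb measured 6.21 and 6.89 in WT, 7.35 and 6.97 in RelB-KO, 6.27 and 6.41 in Nfkb2-KO, and 7.35 and 7.67 in DKO, so that, as for Klrg1, the libraries with Relb deleted were the highest.

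Most like Pparg were Smarcd3, of the SWI/SNF chromatin remodeller (r = 0.96), the G protein gene Gna15 (0.96) and Ctsh (0.96). For Il1rl1 they were the chemokine receptor gene Ccr4 (0.99), Batf (0.96) and Tnfrsf8, which encodes CD30 (0.96). Ccr4 measured 11.83 and 12.24 in WT, 12.64 and 12.14 in RelB-KO, 12.36 and 12.25 in Nfkb2-KO, and 12.69 and 12.92 in DKO, lowest in WT replicate 1 and highest in the DKO, as Il1rl1 was. Areg was most like Adck3, Icosl and Traf1 (0.99, 0.99 and 0.98). Traf1, a signalling adaptor of TNF family receptors, had means of 12.69 in WT, 12.50 in RelB-KO, 13.24 in Nfkb2-KO and 12.29 in DKO, the same order as Areg with the same extremes. For Nfil3 they were Maf (0.96), Prdm1 (0.93) and Tox2 (0.90), all highest in the DKO.

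**Figure D4:**
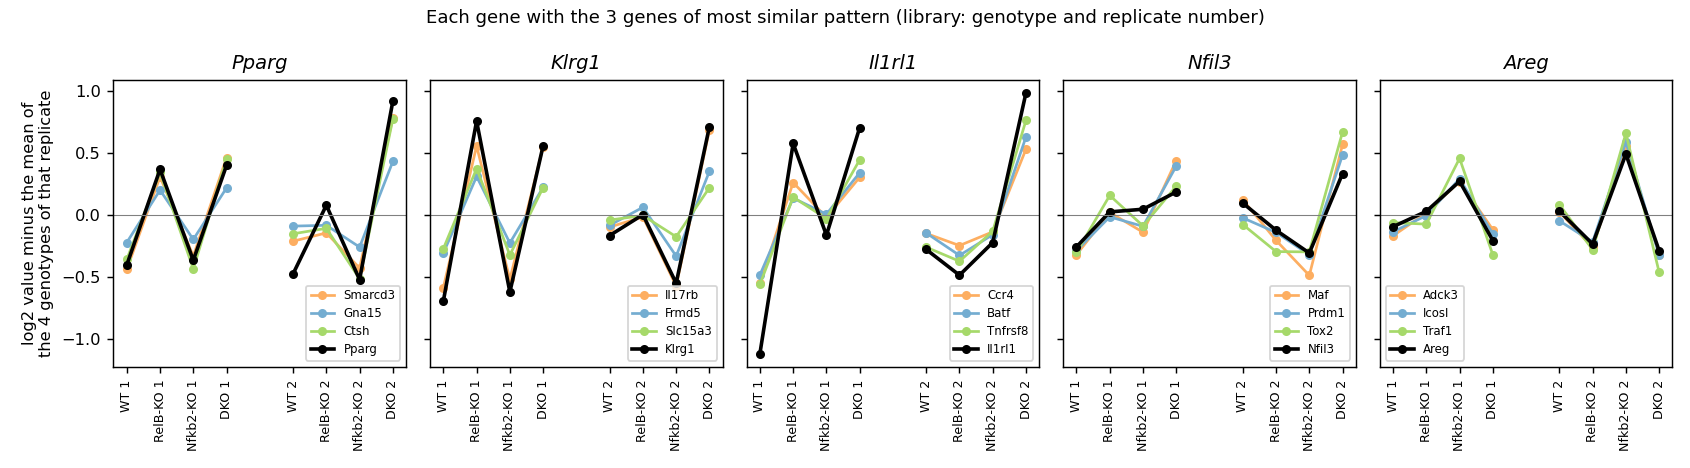
Log2 value minus the mean of the 4 genotypes of the same replicate number (vertical axis) in each of the 8 libraries (horizontal axis), for each member (black) and the 3 genes most like it (colours). The correlations with the member run from 0.90 (Tox2 with Nfil3) to 0.99 (Ccr4 with Il1rl1).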

How the data were processed

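The counting program and the method of batch correction are not given in the sources used here. Per the submitters' processing notes reads were handled with STAR and DESeq2 1.10.1 on mm10. The deposited table gives log2 expression values, named log2 RPKM after batch correction per the file headers, for 8 libraries, and the authors' log2 fold changes against WT with their p-values and adjusted p-values. The deposited z-scores per gene, a score over the 8 libraries per the file headers, were not used. From the log2 values, linear models of 4 genotypes were fitted with limma 3.58.1 in R 4.3.3 (variance trend) over 13797 genes whose mean un-logged value was at least 1, with Benjamini-Hochberg adjustment and a threshold of 0.05. Replicate number as a block was an alternative. Same-numbered libraries deviated together: the correlation of deviations was 0.81 to 0.89 over 6 pairs of genotypes, and the first principal component (67.8% of variance) separated the numbers. The labels do not say what the numbers share. On simulated data for DKO against WT (13797 genes) the model without the block recovered 26% of planted log2 differences of size 0.5 and 76% of size 1, with 0 false calls, and with the block 64% and 90%, with 4 false calls. The simulated data had a replicate shift common to all genotypes and normal noise at the spread of the blocked fit. The gain with the block was thus built in, and these rates do not measure power or error in the real libraries. Other alternatives were quantile normalization, log2(un-logged value + 1), no minimum, no trend, leaving out each library, and, added after seeing the data, differences within a replicate number and lists without WT replicate 1. The members and gene lists were chosen with earlier results of these data known. Named were the 5 members, list genes called with or without the block, otherwise up to 3 per list with the largest differences, and the 3 genes most like each member. Some list genes that this rule names are not reported here.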

Additional observations from a re-analysis of the deposited data

Results flagged for a closer look

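Areg stood out because the sign of its difference with Nfkb2 deletion was opposite in the matched libraries: higher than WT with Relb intact (0.37 and 0.46 within replicate 1 and 2) and lower than RelB-KO with Relb deleted (-0.24 and -0.05). The latter difference, -0.15 ± 0.35, cannot be told from none. Its libraries overlapped, and it ran from -0.57 to 0.28 with 1 library left out at a time. The interaction was -0.56, and it did not pass the limma test with or without the replicate block.

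With the replicate block, and not without it, the interaction of RelB and Nfkb2 deletion was called for 3 list genes, and for 0.471% of all genes. The lists were chosen with earlier results of these data known. The interaction was 1.99 for Gzmb (limma adjusted p = 0.00966), -1.40 for Bhlhe40 (adjusted p = 0.0123) and 1.49 for Satb1 (adjusted p = 0.0356). Without the block the limma adjusted p was 0.9998 for Gzmb, 0.9998 for Bhlhe40 and 0.470 for Satb1.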

How the results depend on the processing

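With the replicate block the number of genes called was 2 for RelB-KO minus WT (1 without it), 402 for Nfkb2-KO minus WT (47), 9 for DKO minus WT (2), 693 for DKO minus Nfkb2-KO (106), 2 for DKO minus RelB-KO (1) and 65 for the interaction (1). Without a minimum level, 20 genes were called for Nfkb2-KO minus WT and 0 for DKO minus RelB-KO. Without a variance trend the counts were 12 for Nfkb2-KO minus WT, 1 for DKO minus WT, 0 for DKO minus RelB-KO and 0 for the interaction. Leaving out 1 library at a time gave 1 to 12 genes for RelB-KO minus WT (12 without WT replicate 2), 0 to 29 for Nfkb2-KO minus WT (0 without WT replicate 1), 1 to 13 for DKO minus WT (13 without WT replicate 2), 8 to 58 for DKO minus Nfkb2-KO (8 without DKO replicate 2), 0 to 2 for DKO minus RelB-KO and 0 to 12 for the interaction. The cause was not tested. Of 465 values of the member differences under all alternatives the sign changed in 32, of which 2 had a difference over 0.5: Il1rl1 in RelB-KO minus WT, -0.21 within replicate 2, and in Nfkb2-KO minus WT, -0.10 without WT replicate 1. With 2 libraries per genotype and depth unknown, small differences such as those of Nfil3 could not be resolved.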
